A study of Mus musculus with 12 samples.

Results

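Anxa10, Akap12, Cdh6, Gimd1 and Palld are 5 genes that were picked by the measured counts themselves, because their RNA was higher in hepatic progenitor cells lacking Cdk8 than in those lacking Cdk19. They are 5 of the 54146 genes in the count files, and all 5 were among the 14283 genes with enough counts to be tested. RNA was sequenced from BMEL (bipotential mouse embryonic liver) cells, a single line derived from a mouse with floxed Cdk8 alleles, which every group therefore shares. The 4 groups of 3 libraries were Cdk8 -/- cells transformed by H-RasG12V (Cdk8 KO), Cdk19 -/- cells transformed by H-RasG12V (Cdk19 KO), wild-type cells transformed by H-RasG12V (RasG12V), and wild-type cells without transformation (untransformed). All were collected in exponential growth on collagen, in medium with serum, insulin, IGFII and EGF. The labels do not say how the knockouts were made, whether they were clones, or whether the 3 libraries of a group came from separate cultures. The p-values therefore measure the spread between libraries, which may be technical.

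Cdk8 and Cdk19 are paralogous kinases. Either can sit in the kinase module of Mediator, which passes signals between DNA-bound factors and the transcription machinery, and they are studied for shared and separate effects on gene expression. Among the 5 genes, Cdh6 encodes a cadherin of adherens junctions, which joins neighbouring cells through calcium and binds catenins inside the cell. Palld encodes palladin, an actin-bundling scaffold of stress fibres and focal adhesions. Akap12 (also called gravin or SSeCKS) encodes a scaffold that holds protein kinase A and protein kinase C near the membrane and cortical actin. Anxa10 encodes an atypical member of the annexins, proteins that bind acidic phospholipids in the presence of calcium, and in the body it is best known from the stomach lining. Gimd1 encodes a little-studied protein with a GTPase-like domain of the GIMAP family.

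In GRCm38 coordinates, Anxa10 (ENSMUSG00000031635) lies on the minus strand at chr8:62057042-62123150 and Palld (ENSMUSG00000058056) on the same strand at chr8:61511433-61902690. They are close neighbours: 154.4 kb separate them, and of the 2 annotated genes between them, Gm45418 and Ddx60, neither had enough counts to be tested. Akap12 (ENSMUSG00000038587) lies on the plus strand at chr10:4266380-4359470. Cdh6 (ENSMUSG00000039385) lies on the minus strand at chr15:13028701-13173675, and Gimd1 (ENSMUSG00000091721) on the plus strand at chr3:132629820-132645351. Only Palld overlaps other annotated genes, the pseudogene Gm18066 on its own strand and the antisense gene 4930512H18Rik. These held at most 1 and 3 counts in any library.

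RefSeq (GRCm38.p6) gave promoter windows for 4 of the 5 genes, 8 windows in all, each holding 250 bases before and 50 bases after an annotated start. Akap12 was not matched. Each window was searched on both strands for exact matches to 5 short motifs. The AP-1 motif was spelled TGACTCA, which on the other strand is read as TGAGTCA. The TEAD motif was spelled GGAATG and the one for ETS factors was spelled CCGGAAG. The GC box was spelled GGGCGG, while the TATA box was spelled TATAAA. The 3 windows with the most matches are shown 5′ to 3′ on the gene's strand with the matches in capitals. They were picked for their matches, so the shares of all windows given below do not measure how rare they are. The Anxa10 window is chr8:62123144-62123443, the Cdh6 window chr15:13173626-13173925, and the Palld window chr8:61591090-61591389, which belongs to the innermost of its 3 annotated starts.
Anxa10: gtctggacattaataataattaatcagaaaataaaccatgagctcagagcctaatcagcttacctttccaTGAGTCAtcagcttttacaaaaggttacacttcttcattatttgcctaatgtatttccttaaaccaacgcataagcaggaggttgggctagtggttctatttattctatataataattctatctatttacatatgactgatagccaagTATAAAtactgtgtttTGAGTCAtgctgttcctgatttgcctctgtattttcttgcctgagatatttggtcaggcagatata
Cdh6: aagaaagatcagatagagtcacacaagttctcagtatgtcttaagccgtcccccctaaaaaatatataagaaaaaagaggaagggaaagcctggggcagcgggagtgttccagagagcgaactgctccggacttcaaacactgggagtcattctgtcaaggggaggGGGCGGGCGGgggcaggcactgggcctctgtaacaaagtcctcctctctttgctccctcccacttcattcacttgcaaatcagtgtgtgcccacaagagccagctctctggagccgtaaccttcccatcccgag
Palld: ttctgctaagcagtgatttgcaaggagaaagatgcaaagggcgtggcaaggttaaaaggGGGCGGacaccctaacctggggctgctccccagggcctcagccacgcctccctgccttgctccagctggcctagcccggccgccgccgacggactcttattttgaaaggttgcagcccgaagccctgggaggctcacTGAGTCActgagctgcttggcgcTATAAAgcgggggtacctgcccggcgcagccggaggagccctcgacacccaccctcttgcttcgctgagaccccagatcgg
The Anxa10 window held 2 AP-1 matches, at -180 and -16 from the start, and a TATA box at -32. The Palld window held an AP-1 match at -54, a TATA box at -31 and a GC box at -191. The Cdh6 window held 2 GC boxes, at -84 and -80, which overlap by 2 bases, and no AP-1 match. Of 32851 RefSeq promoter windows, 5.20% held an AP-1 match, 0.222% held 2 or more, and 0.941% held an AP-1 match together with a TATA box. A GC box was in 35.7% of them and a TATA box in 13.6%. The 3 Gimd1 windows and the outermost Palld window held no match to any of these motifs, and the other Palld window held a TEAD match at -87, a motif in 14.7% of all windows. A match describes letters only, and gene counts do not tell which start was used.

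The libraries held between 24823560 and 36879661 gene counts, and a count of 3, taken as the floor, corresponds to 0.0813 to 0.121 CPM. Levels are CPM, counts scaled to library size, with the TMM scaling of edgeR. Untransformed replicate 3 and RasG12V replicate 3 stood apart from the other libraries of their groups: the mean chi-square per gene was 56.05 and 56.9 between the untransformed replicate and the others, against 8.18 between those. For RasG12V it was 93.5 and 85.4, against 4.61. No pair in either knockout exceeded 19.3, and no pair of libraries agreed within sampling noise. Results of the 5 genes that use these libraries are therefore given with and without both of them. Gene-level counts did not check the knockouts, because they do not resolve the deleted part: Cdk8 averaged 42.8 ± 1.30 CPM in Cdk8 KO, 55.0 ± 2.21 CPM in Cdk19 KO and 54.5 ± 3.14 CPM in RasG12V libraries. Cdk19 averaged 63.9 ± 5.58 CPM in Cdk8 KO, 49.8 ± 4.22 CPM in Cdk19 KO and 75.2 ± 16.1 CPM in RasG12V libraries (SD, n = 3 each). Hras averaged 453 ± 123 CPM in RasG12V and 50.0 ± 8.57 CPM in untransformed libraries. The labelled cell type was checked on 13 markers of hepatoblasts and cholangiocytes, of which 10 reached 1 CPM in each transformed group and 11 in untransformed cells. Krt8, Krt18, Krt19 and Hnf4a were among the highest, Epcam stayed below 1 CPM, Dlk1 had no count, and Alb averaged at most 0.0201 CPM in the transformed groups and 3.05 CPM in untransformed cells.

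Anxa10 read 36.5, 42.1 and 39.3 CPM in Cdk8 KO, 14.5, 13.4 and 14.9 CPM in Cdk19 KO, 25.2, 23.8 and 31.8 CPM in RasG12V, and 62.4, 63.4 and 5.93 CPM in untransformed libraries. The 3 transformed groups formed separate bands, with Cdk8 KO highest and Cdk19 KO lowest. Untransformed cells spanned all of them, because replicate 3 lay at 0.0944 times the mean of the other untransformed libraries, the widest departure of any library for these genes.

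Akap12 read 21.3, 18.4 and 22.2 CPM in Cdk8 KO, 7.58, 8.43 and 7.30 CPM in Cdk19 KO, 12.03, 12.7 and 3.20 CPM in RasG12V, and 132, 119.7 and 39.3 CPM in untransformed libraries. Untransformed cells stood above every transformed library and Cdk8 KO above the other transformed groups, while Cdk19 KO and RasG12V overlapped. That overlap came from RasG12V replicate 3, at 0.258 times the mean of the other RasG12V libraries, and untransformed replicate 3 was also low for its group, at 0.312 times.

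Cdh6 read 72.4, 65.5 and 84.5 CPM in Cdk8 KO, 37.3, 36.3 and 38.0 CPM in Cdk19 KO, 58.6, 63.3 and 42.1 CPM in RasG12V, and 147, 146 and 111 CPM in untransformed libraries. The 4 groups did not overlap and ran from untransformed through Cdk8 KO and RasG12V down to Cdk19 KO. As with Akap12, replicate 3 was the lowest library in both RasG12V and untransformed cells.

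Gimd1 read 207, 228 and 210.0 CPM in Cdk8 KO, 127, 133 and 134 CPM in Cdk19 KO, 183, 173 and 215 CPM in RasG12V, and 203, 209 and 182.5 CPM in untransformed libraries. Cdk19 KO lay below every other library, and the other 3 groups overlapped one another.

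Palld read 209, 194 and 225 CPM in Cdk8 KO, 143, 146 and 150.0 CPM in Cdk19 KO, 159, 170.0 and 162 CPM in RasG12V, and 127, 116 and 128 CPM in untransformed libraries. The 4 groups did not overlap, and untransformed cells were the lowest, which held for none of the other 4 genes by group mean. In bulk RNA, fewer cells with a transcript and less RNA per cell cannot be told apart, and this holds for every level here.

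**Figure D1:**
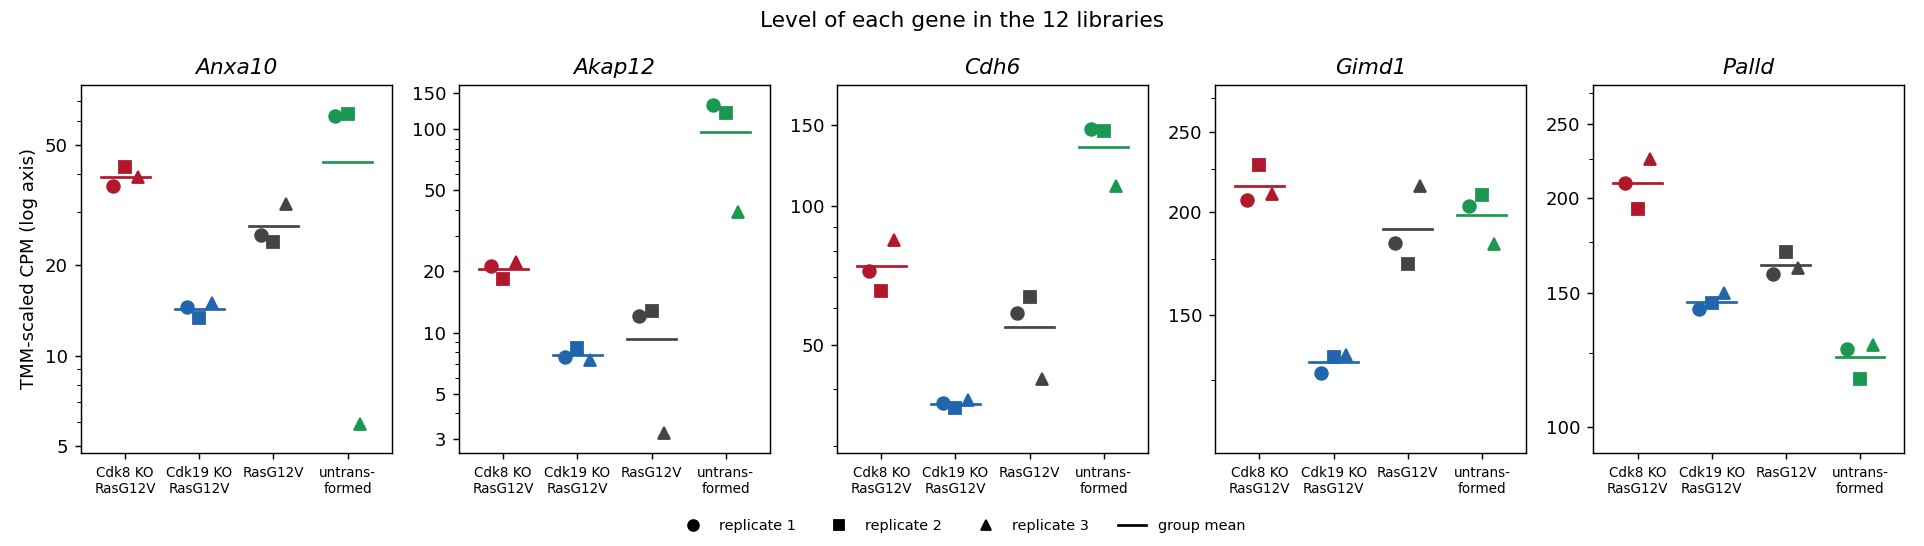
Level of each gene in TMM-scaled CPM on a log axis, with 1 point per library (circle, square and triangle for replicates 1, 2 and 3) and a bar at the group mean, in Cdk8 KO, Cdk19 KO, RasG12V and untransformed cells. For all 5 genes every Cdk8 KO library lies above every Cdk19 KO library, and the untransformed replicate 3 triangle of Anxa10 lies at 5.93 CPM.

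Per kilobase of annotated exon, which allows genes to be compared, Gimd1 was the most abundant of the 5 in every group, at 138 CPM per kb in Cdk8 KO, 84.2 in Cdk19 KO, 122 in RasG12V and 127 in untransformed cells. Akap12 was the least abundant in the transformed groups, at 3.19 CPM per kb in Cdk8 KO, 1.20 in Cdk19 KO and 1.44 in RasG12V, but at 15.0 in untransformed cells it exceeded Palld, at 12. Palld ranged from 12 to 20.4 CPM per kb over the group means and Cdh6 from 4.12 to 14.9. Anxa10 ranged from 6.23 CPM per kb in Cdk19 KO to 19.2 in untransformed cells. Reads on the strand opposite to each gene were few, at 0.174% of the reads on both strands together for Anxa10, 0.405% for Gimd1, 1.21% for Cdh6, 1.71% for Palld and 2.05% for Akap12.

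The comparison of Cdk8 KO with Cdk19 KO chose these genes, so its values describe them and were not tested. Anxa10 was 2.75 times as high in Cdk8 KO as in Cdk19 KO by mean CPM, Akap12 2.65 times, Cdh6 1.99 times, Gimd1 1.63 times and Palld 1.43 times. On the log2 scale of the edgeR fit the differences were 1.46 (SE 0.560) for Anxa10, 1.41 (SE 0.467) for Akap12, 1.00 (SE 0.154) for Cdh6, 0.71 (SE 0.0891) for Gimd1 and 0.52 (SE 0.0738) for Palld. Each SE is an approximation, the size of the log2 fold change over the root of its quasi-likelihood F value. Ranked by fold change over the 14283 genes tested, Anxa10 was the 41st highest, Akap12 the 48th, Cdh6 the 156th, Gimd1 the 372nd and Palld the 684th. The order by fold is thus not the order by precision, since Gimd1 and Palld had the smallest errors. All 5 were higher without overlap between libraries, as were 11.1% of all genes tested, and 0.105% of all genes, 15 in number, passed an adjusted p of 0.05 in this comparison.

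The fold changes between the knockouts rest on the knockout libraries alone, so leaving out untransformed and RasG12V replicates 3 could change only their errors, through the spread that the groups share. The SE then became 0.0755 for Anxa10 and 0.0894 for Akap12, at log2 fold changes of 1.46 and 1.41. In that fit 5.32% of 14493 genes passed the threshold, and 3.59% were higher in Cdk8 KO. The knockout libraries themselves varied little: the SD was 2.83 CPM in Cdk8 KO and 0.806 CPM in Cdk19 KO for Anxa10, and 1.96 CPM and 0.591 CPM for Akap12.

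Set beside RasG12V cells, each gene was split between the knockouts, above RasG12V in Cdk8 KO and below it in Cdk19 KO. Both comparisons use the same RasG12V libraries, and each uses knockout libraries that chose the genes, so no test is given. Akap12 had the widest gap above RasG12V, at a log2 difference of 1.16 (SE 0.464) in Cdk8 KO, and -0.25 (SE 0.478) in Cdk19 KO. Without the replicates 3 these values became 0.74 (SE 0.0975) in Cdk8 KO and -0.66 (SE 0.105) in Cdk19 KO, so the difference sat about evenly on both sides of RasG12V. Leaving out RasG12V replicate 2 alone turned the Cdk19 KO value to 0.05, and leaving out RasG12V replicate 3 alone took it to -0.67. Anxa10 was 0.54 (SE 0.545) above RasG12V in Cdk8 KO and -0.92 (SE 0.559) in Cdk19 KO, and 0.68 (SE 0.0825) and -0.78 (SE 0.0858) without the replicates 3.

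For Cdh6 and Gimd1, as for Anxa10, the Cdk19 KO side was the wider. Cdh6 differed from RasG12V by 0.44 (SE 0.152) in Cdk8 KO and -0.55 (SE 0.154) in Cdk19 KO, and by 0.29 (SE 0.0850) and -0.71 (SE 0.0858) without the replicates 3. Gimd1 differed by 0.17 (SE 0.0886) in Cdk8 KO, where its libraries overlapped RasG12V, and by -0.53 (SE 0.0890) in Cdk19 KO, and by 0.28 (SE 0.0628) and -0.43 (SE 0.0623) without the replicates 3. Palld was the reverse, at 0.36 (SE 0.0737) in Cdk8 KO and -0.16 (SE 0.0737) in Cdk19 KO, and at 0.35 (SE 0.0697) and -0.16 (SE 0.0692) without them. Of the 5 genes, 4 stood above RasG12V without overlap in Cdk8 KO, all but Gimd1, as did 6.36% of all genes tested. In Cdk19 KO 4 stood below without overlap, all but Akap12, as did 7.78% of all genes. The share of all genes past the adjusted threshold was 0% for Cdk8 KO against RasG12V and 0.0140% for Cdk19 KO against RasG12V. For Cdk8 KO against RasG12V, where edgeR called 0 genes, 871 had an unadjusted p under 0.05 and DESeq2 called 30 at an adjusted p under 0.05. Without the replicates 3 edgeR called 231 genes for Cdk8 KO and 291 for Cdk19 KO, against RasG12V.

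**Figure D2:**
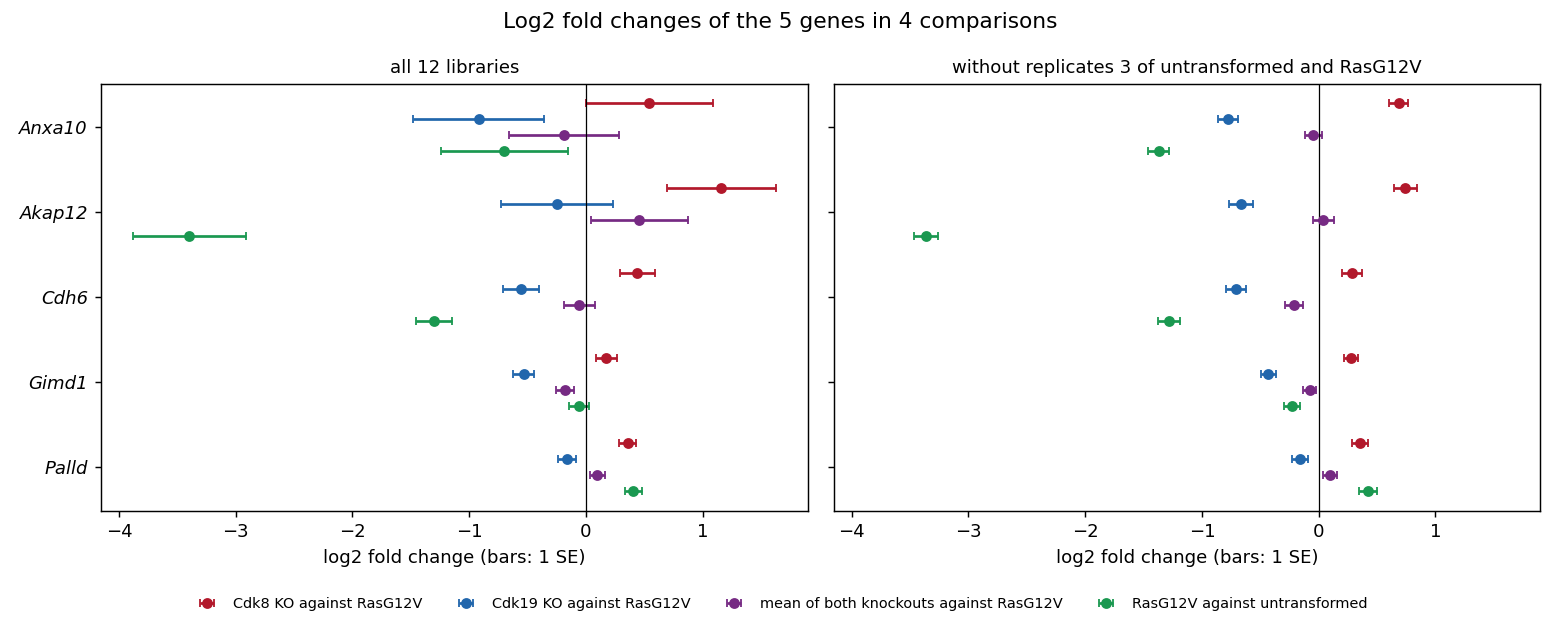
Log2 fold change of each gene with a bar of 1 SE in 4 comparisons, from all 12 libraries (left) and without replicates 3 of untransformed and RasG12V cells (right). Cdk8 KO values lie above 0 and Cdk19 KO values below 0 for all 5 genes in both panels, and the bars of Anxa10 and Akap12 are much shorter on the right.

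The mean of both knockouts against RasG12V is independent of the difference that chose the genes and asks whether loss of either kinase moved them on average. No gene of the 5 passed the test, and 0.0140% of all genes did, which is 2 genes, against 956 at an unadjusted p under 0.05 by edgeR and 18 at an adjusted p under 0.05 by DESeq2. The log2 fold changes were -0.19 (SE 0.473, adjusted p = 0.949, edgeR) for Anxa10, 0.46 (SE 0.413, adjusted p = 0.834) for Akap12 and -0.06 (SE 0.132, adjusted p = 0.945) for Cdh6. Gimd1 had the lowest p of the 5, unadjusted 0.0364 by edgeR, at a log2 fold change of -0.18 (SE 0.0763, adjusted p = 0.724). Palld stood at 0.10 (SE 0.0640, adjusted p = 0.785). The 6 knockout libraries overlapped the RasG12V libraries for all 5 genes, while 4.07% of all genes did not overlap. Without the replicates 3 the values ranged from -0.21 for Cdh6 (SE 0.0758, adjusted p = 0.186, edgeR) to 0.10 for Palld, still none past the threshold, where 0.800% of all genes passed. The sign for Cdh6 was not settled, since it ran from -0.21 to 0.07 as each library was left out in turn. Akap12 ran from 0.04 without RasG12V replicate 3 to 0.75 without RasG12V replicate 2.

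Transformation by H-RasG12V was tested on the RasG12V and untransformed libraries, which the choice of the genes did not use. Akap12 and Cdh6 fell and Palld rose, so 3 of the 5 genes passed the edgeR test, where 23.4% of all genes did, 11.9% higher and 11.5% lower. Akap12 averaged 9.31 ± 5.31 CPM in RasG12V and 97.1 ± 50.4 CPM in untransformed cells (SD, n = 3 each), 10.4 times lower in RasG12V, at a log2 fold change of -3.40 (SE 0.485, adjusted p = 0.000309, edgeR). Cdh6 averaged 54.6 ± 11.2 CPM in RasG12V and 134 ± 20.6 CPM in untransformed cells, 2.46 times lower in RasG12V, at a log2 fold change of -1.30 (SE 0.154, adjusted p = 7.41e-05). Palld averaged 163.5 ± 5.83 CPM in RasG12V and 123.5 ± 6.95 CPM in untransformed cells, 1.32 times higher in RasG12V, at a log2 fold change of 0.41 (SE 0.0739, adjusted p = 0.00169). In each of these 3 genes no RasG12V library overlapped an untransformed one, as for 32.3% of all genes.

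Anxa10 did not pass with all libraries, at 27.0 ± 4.25 CPM in RasG12V and 43.9 ± 32.9 CPM in untransformed cells and a log2 fold change of -0.70 (SE 0.545, adjusted p = 0.405, edgeR). That result rested on untransformed replicate 3: it became -1.22 without that library alone (SE 0.118, adjusted p = 2.19e-05, edgeR) and -1.37 without both replicates 3 (SE 0.0884, adjusted p = 2.48e-10). Gimd1 likewise did not pass, at a log2 fold change of -0.06 (SE 0.0886, adjusted p = 0.693, edgeR), and passed at -0.23 (SE 0.0683, adjusted p = 0.0124) without both replicates 3. Akap12, Cdh6 and Palld then stood at -3.36, -1.28 and 0.43 and still passed, so that without those libraries all 5 genes passed, against 40.0% of all genes tested. Palld is thus the member that was higher in Cdk8 KO than in Cdk19 KO and higher with Ras, while Akap12 and Cdh6 were higher in Cdk8 KO and lower with Ras.

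The genes around each of the 5 on the chromosome were read in the same fits. Within 1 Mb of the start there were 4 tested genes beside Anxa10, 7 beside Akap12, 4 beside Cdh6, 9 beside Gimd1 and 6 beside Palld. Anxa10 and Palld count as each other's neighbour, but were chosen on the difference between the knockouts and are set aside where calls are counted. None of the other neighbours passed the test between Cdk8 KO and Cdk19 KO, where 0.105% of all genes passed. None of these other neighbours passed without the replicates 3 either, where 5.32% of all genes did. The median log2 difference between the knockouts was -0.07 over the neighbours of Akap12, 0.06 over those of Cdh6 and 0.01 over those of Gimd1. It was 0.01 over those of Palld, Anxa10 included, and -0.0042 over all genes tested. Over the neighbours of Anxa10 it was 0.21, but this includes Palld, at 0.52. The other neighbours of Anxa10 stood at 0.40, 0.02 and -0.01.

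**Figure D3:**
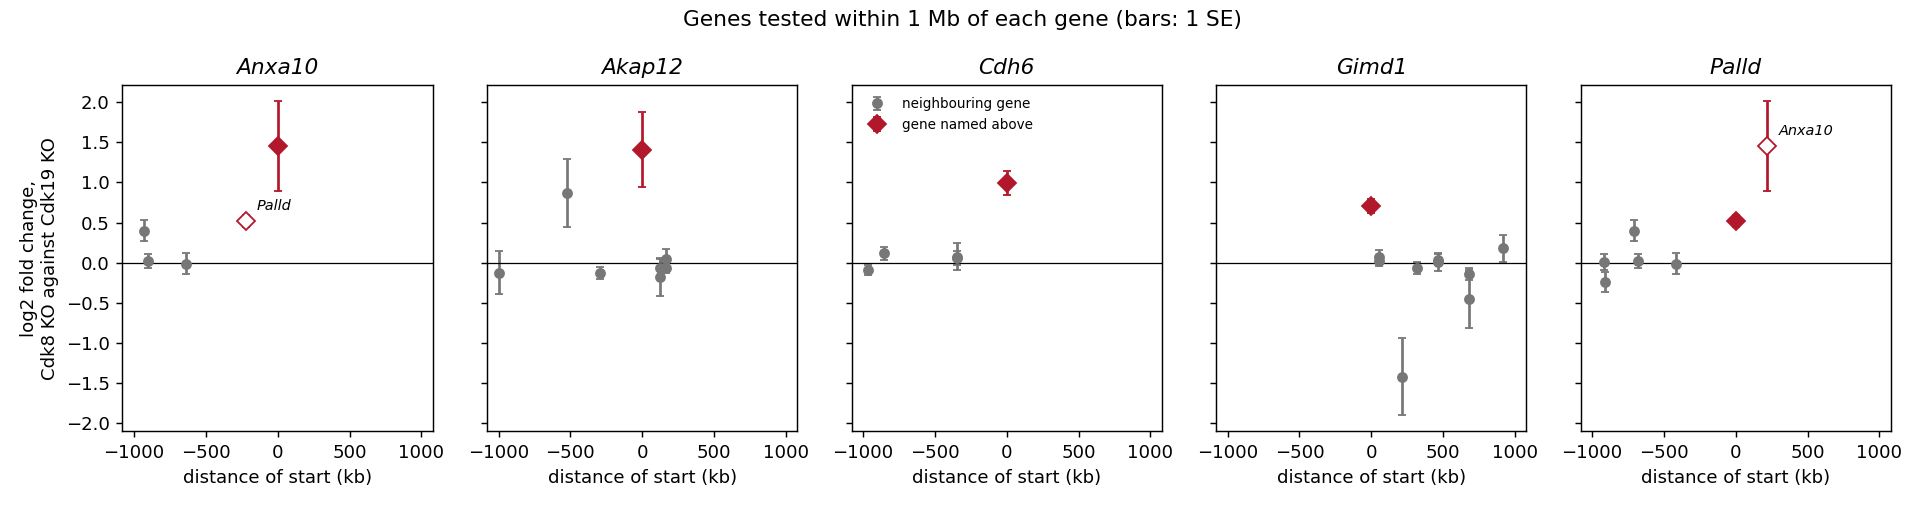
Log2 difference between Cdk8 KO and Cdk19 KO, with a bar of 1 SE, of every tested gene whose start lies within 1 Mb of each of the 5 genes, against the distance between starts in kb. The gene named above each panel is a filled diamond, and Anxa10 and Palld appear as open diamonds in each other's panel, 220.5 kb apart.

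To see how alike the 5 genes were over all 12 libraries, each profile of log2 CPM was centred on its own mean and the root mean square difference was taken. Gimd1 and Palld were the most alike of the 10 pairs, at 0.33, and Akap12 and Palld the least, at 1.66. Anxa10 and Palld, the chromosomal neighbours, differed by 0.95, and Akap12 and Cdh6 by 0.90. The median difference from other protein-coding genes was 0.35 for Gimd1, 0.34 for Palld, 0.99 for Anxa10, 1.53 for Akap12 and 0.72 for Cdh6. Gimd1 and Palld were thus about as alike as either was to a typical gene. Since all 5 were picked for 1 difference, likeness over the knockout libraries is in part given by that choice. The measure is a description, and it falls for genes that vary little.

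Among 10639 other protein-coding genes, the nearest profiles to Anxa10 were Ivl, F3 and Sprr1a, at 0.49, 0.51 and 0.51, against a median of 0.99 over all candidates. These distances include untransformed replicate 3, where Anxa10 read 5.93 CPM against 62.4 and 63.4 CPM in the other untransformed libraries. They were not taken without that library, so they do not single out the difference between the knockouts. Ivl and Sprr1a encode involucrin and a small proline-rich protein of the cornified envelope, and F3 encodes tissue factor, the starter of coagulation. F3 averaged 169 CPM in Cdk8 KO, 79.4 in Cdk19 KO, 121 in RasG12V and 181 in untransformed cells. In Cdk8 KO, Ivl averaged 17.05 CPM and Sprr1a 1083 CPM, against 17.01 and 1236 CPM in RasG12V, so neither lay clearly above it. Nearest to Akap12 were Fgfr3, Sbsn and Dsg2, at 0.45 to 0.62 against a median of 1.53. Dsg2, a desmosomal cadherin, averaged 5.39 CPM in Cdk8 KO, 2.56 in Cdk19 KO, 4.08 in RasG12V and 21.7 in untransformed cells. Fgfr3 averaged 0.802 CPM in Cdk19 KO, above its 0.587 CPM in RasG12V. Nearest to Cdh6 were Setbp1, Fgd3 and Shpk, at 0.22 to 0.29 against a median of 0.72.

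Gimd1 lay nearest to Micu2, Scel and Shc2, at 0.12 to 0.14 against a median of 0.35. Scel encodes sciellin, a precursor of the cornified envelope, and averaged 47.3 CPM in Cdk8 KO, 29.0 in Cdk19 KO, 36.5 in RasG12V and 39.9 in untransformed cells. Micu2 and Shc2 averaged 40.6 and 46.9 CPM in Cdk8 KO, close to their 40.1 and 47.1 CPM in RasG12V. Palld lay nearest to Fzd4, Samd4b and Pls3, at 0.11 to 0.12 against a median of 0.34. Pls3 encodes plastin 3, an actin-bundling protein, and averaged 483 CPM in Cdk8 KO, 365 in Cdk19 KO, 420.3 in RasG12V and 271 in untransformed cells. Scel and Pls3 were among the 15 genes past the threshold between the knockouts.

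Relatives and binding partners of the 5 genes were counted in the same fits, with the 5 genes themselves left out. None of the tested members of these lists passed between Cdk8 KO and Cdk19 KO with all libraries. Of the other annexins 11 of 11 were tested, and their median log2 difference between the knockouts was 0.22, against -0.0042 over all genes. When the replicates 3 were left out, 5 annexins passed, all higher in Cdk8 KO, as were 3.59% of all genes. Anxa13 was the furthest of these, at a log2 difference of 0.51 (SE 0.0635, adjusted p = 4.62e-05, edgeR), and Anxa1, Anxa4, Anxa8 and Anxa11 lay between 0.22 and 0.31. With Ras, 4 of the 11 annexins passed, against 23.4% of all genes: Anxa8, Anxa11 and Anxa13 fell and Anxa7 rose. Anxa8 averaged 119 ± 44.3 CPM in RasG12V and 369 ± 13.7 CPM in untransformed cells, at a log2 fold change of -1.63 (SE 0.193, adjusted p = 7.70e-05, edgeR).

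Of 22 other cadherins 7 were tested, with a median of 0.27 between the knockouts. In the fit without those libraries Cdh17, the liver-intestine cadherin, was higher in Cdk8 KO by 0.67 (SE 0.0750, adjusted p = 2.88e-05, edgeR), and Cdh10 by 1.48 (SE 0.271, adjusted p = 0.00245). These were 2 of the 7, where 3.59% of all genes were higher. Cdh10 was a low gene, at 1.62 CPM in Cdk8 KO and 0.576 CPM in Cdk19 KO. With Ras, 4 of the 7 cadherins fell and 1 rose, where 11.5% of all genes fell and 11.9% rose. Cdh1, Cdh2, Cdh13 and Cdh24 fell, but Cdh2 lost its call without the replicates 3, with an edgeR adjusted p of 0.153 in place of 0.0443. No other gene of these lists that passed with Ras missed the threshold in that fit. Cdh1, the epithelial E-cadherin, averaged 302 ± 147 CPM in RasG12V and 541 ± 34.3 CPM in untransformed cells, at a log2 fold change of -0.84 (SE 0.244, adjusted p = 0.0253, edgeR), which was -1.38 (SE 0.105, adjusted p = 3.74e-08) without the replicates 3. Among other list genes that passed with Ras in both fits, the log2 fold changes that shifted by over 1.5 times were those of Cdh13, at -1.03 in place of -0.58, Anxa11, at -0.78 in place of -0.47, and Anxa7, at 0.20 in place of 0.42. Further list genes passed only without the replicates 3, among them Anxa4, at -0.63 in place of -0.15, Ctnnb1, at -0.32 in place of -0.08, and Cdh10, at 1.41 in place of 0.85. Cdh5 was called higher at 0.396 CPM in RasG12V and 0.0749 CPM in untransformed cells, levels that rest on few reads. Of 10 catenins 7 were tested, with a median of 0.02 between the knockouts. Without the replicates 3, Jup, which encodes plakoglobin, was higher in Cdk8 KO by 0.36 (SE 0.090, adjusted p = 0.0288, edgeR). This was 1 of the 7, where 3.59% of all genes were higher. Jup fell with Ras, at a log2 fold change of -0.67 (SE 0.217, adjusted p = 0.0420, edgeR), and Ctnnal1 rose, at 1.42 (SE 0.202, adjusted p = 0.000299). No other of the 7 catenins passed with Ras, where 23.4% of all genes did.

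Around Akap12, 16 of 22 other A-kinase anchoring proteins were tested and their median difference between the knockouts was -0.03. None passed between the knockouts, with or without the replicates 3. With Ras, 4 of the 16 passed, a share near the 23.4% of all genes: Rab32 and Akap9 fell, and Ezr and Akap17b rose. Rab32 averaged 2.12 ± 0.237 CPM in RasG12V and 8.56 ± 0.883 CPM in untransformed cells, at a log2 fold change of -2.02 (SE 0.150, adjusted p = 1.87e-06, edgeR). Of 14 subunits of protein kinases A and C 10 were tested, with a median of -0.05 between the knockouts. After the replicates 3 were left out, Prkar2b, a regulatory subunit of protein kinase A, was lower in Cdk8 KO, at -0.46 (SE 0.0737, adjusted p = 0.000629, edgeR), and Prkca was lower at -0.22. These were 2 of the 10, where 5.32% of all genes passed in either direction. With Ras, Prkca, Prkci and Prkcz, all encoding protein kinase C isoforms, fell, which is 3 of the 10, where 11.5% of all genes fell.

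Around Palld, 13 of 16 relatives and partners were tested, with a median difference of 0.08 between the knockouts, and 17 of 21 actin genes and targets of serum response factor, with a median of 0.18. In the fit without the replicates 3, 1 of the 13 partners (Actn1) and 4 of the 17 actin genes (Cnn2, Vcl, Tpm4 and Zyx) were higher in Cdk8 KO, as were 3.59% of all genes. Zyx, which encodes the focal adhesion protein zyxin, had the largest of these differences, at 0.45 (SE 0.0791, adjusted p = 0.00151, edgeR). With Ras, Lasp1 and Eps8 of the partners fell and Vasp and Pfn2 rose, while of the actin genes Actb and Cald1 rose and Tpm1, Ccn1 and Ccn2 fell. Thus 2 of the 13 partners rose and 2 fell, and 2 of the 17 actin genes rose and 3 fell. Of all genes 11.9% rose and 11.5% fell. Actb averaged 2914 ± 176 CPM in RasG12V and 2202 ± 274 CPM in untransformed cells, at a log2 fold change of 0.40 (SE 0.0959, adjusted p = 0.00882, edgeR). Of the 8 GIMAP GTPases, relatives of Gimd1, only Gimap9 was tested and it did not pass in either comparison with all libraries. In the mean of both knockouts against RasG12V no member of any of these lists passed with all libraries. Without the replicates 3, 3 of them did, all higher in the knockouts, where 0.800% of all genes passed: Anxa13 at 0.41 (SE 0.0653, adjusted p = 0.00524, edgeR), Anxa8 at 0.32 (adjusted p = 0.0486) and Eps8 at 0.25 (adjusted p = 0.0428).

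**Figure D4:**
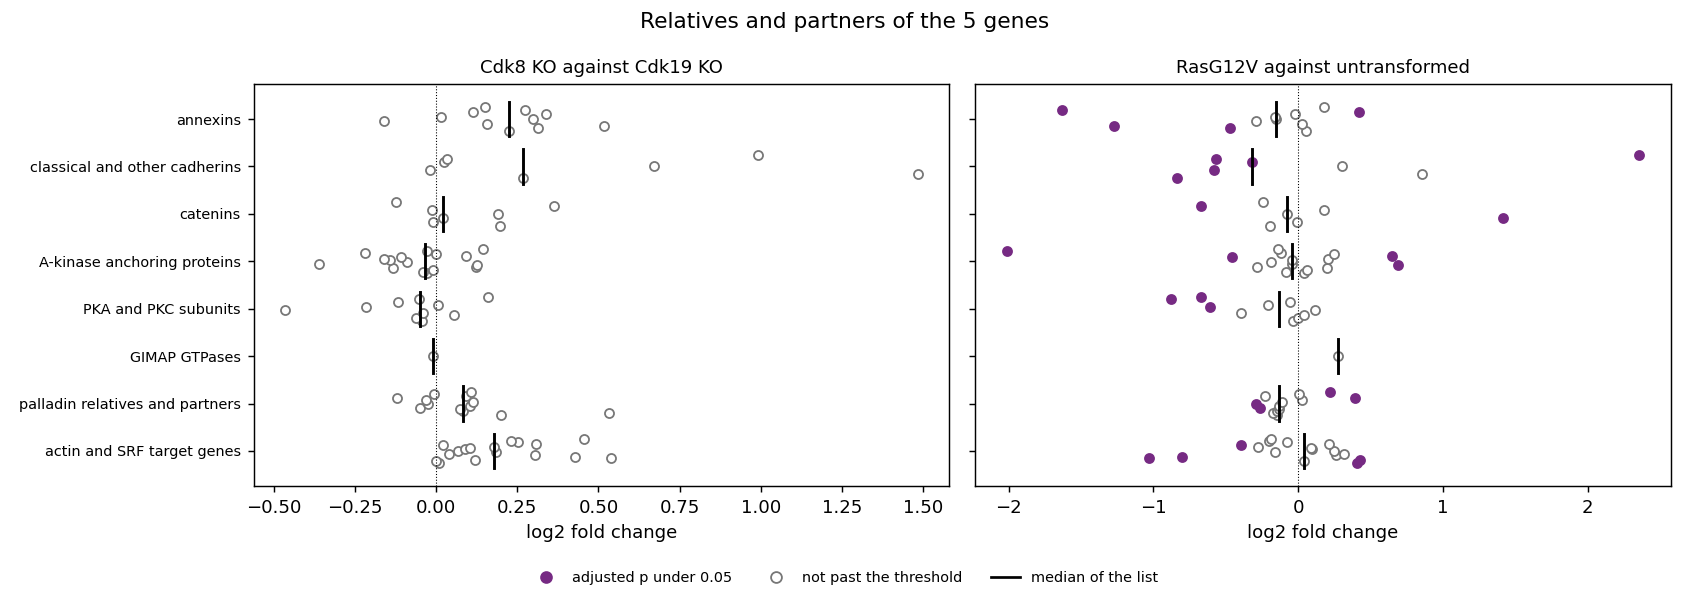
Log2 fold changes of tested relatives and partners of the 5 genes, 1 point per gene, for Cdk8 KO against Cdk19 KO (left) and RasG12V against untransformed (right), with a bar at the median of each list. No point on the left is past an adjusted p of 0.05, and the medians of the annexins (0.22), the cadherins (0.27) and the actin genes (0.18) lie to the right of 0.

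Markers of other cell types were read beside these results. The summed level of 11 markers of gastric epithelium was higher in Cdk8 KO than in Cdk19 KO, as the 5 genes were: 145 to 195 CPM in Cdk8 KO, 82.6 to 101 CPM in Cdk19 KO, 97.9 to 280 CPM in RasG12V and 300 to 427 CPM in untransformed libraries. Most of it was Vsig1, at 172 CPM in Cdk8 KO, 88.3 in Cdk19 KO, 156 ± 104 (SD) in RasG12V and 261.5 in untransformed cells. The RasG12V mean hides a wide spread, since the median of the summed levels there was 98.15 CPM. Without the untransformed and RasG12V libraries that stood apart, Vsig1 in Cdk8 KO lay 0.85 above RasG12V on the log2 scale, in place of 0.14. In Cdk19 KO it lay at -0.11 from RasG12V, in place of -0.82. Only Vsig1 and Cldn18 reached 1 CPM in the transformed groups, and Gif, Tff2 and Gkn3 had no count in either knockout. The 7 mesothelial markers summed to 1383 to 1433 CPM in Cdk8 KO, 1094 to 1189 CPM in Cdk19 KO, 1295 to 1377 CPM in RasG12V and 1371 to 1677 CPM in untransformed libraries, nearly all of it Msln, with Wt1 below 1 CPM in every group. By group mean, Anxa10, Akap12 and Cdh6 were highest in untransformed cells, and Gimd1 and Palld in Cdk8 KO, with Palld lowest in untransformed cells. The part of these cell types in the results was not tested. Endothelial markers stayed below 1 CPM in all groups, and leukocyte markers summed to at most 7.99 CPM in any library. Of the 12 smooth muscle and fibroblast markers, Smtn made up most of the sum, 44.8 to 47.3 CPM in Cdk8 KO and 48.0 to 51.3 CPM in Cdk19 KO, and Lum and Thy1 had no count.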

How the data were processed

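RNA-seq of 12 libraries in 4 groups of 3 was taken as deposited gene counts. Per the submitters' processing notes, the authors used FastQC, STAR 2.6.0a and the genome build GRCm38.p6. Which annotation release they used is not given in the sources used here. Total RNA, per the labels, was depleted of ribosomal RNA, and libraries were made with a TruSeq RNA kit. Reverse-strand counts (column 4) were used, since they held 24.7 to 28.9 times the forward-strand counts. Rows that name no gene were left out: unmapped reads (2.10% to 3.34%), multi-mapped reads (23.0% to 26.3%), reads outside genes (4.31% to 5.85%) and ambiguous reads (0.963% to 1.04%). Floors cover counting error only, because without molecular identifiers PCR copies count as reads.

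The test was the quasi-likelihood one of edgeR 4.0.16 under R 4.3.3, with filterByExpr on groups, TMM scaling and robust glmQLFit, all 12 libraries in a single fit that had no block, and Benjamini-Hochberg adjustment over 14283 genes and a threshold of 0.05. Symbols and coordinates came from GENCODE M21 (54079 of 54146 identifiers matched) and promoter sequences from RefSeq. The members, gene lists and tests were chosen with earlier results of these data known. Named genes were the members, the targeted genes, for each member the 3 nearest profiles among protein-coding genes of at least 1 CPM (log2 CPM with a prior count of 2), up to 4 genes per list by adjusted p, list genes past the threshold between the knockouts, and such neighbours. Dsg2, F3, Scel and Pls3 were given their levels, and further list genes their names, after their values were seen. Alternatives were RLE and upper quartile scaling, other low-count filters, DESeq2 1.42.0, limma-voom (limma 3.58.1), the unstranded column, a replicate block, leaving out each library, leaving out both libraries that stood apart, and fitting only the groups compared. Figures were drawn with matplotlib 3.10.9.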

Additional observations from a re-analysis of the deposited data

Results flagged for a closer look

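All 5 genes drew attention for the same reason: every Cdk8 KO library lay above the mean of the RasG12V libraries and every Cdk19 KO library below it. The log2 difference of Cdk8 KO minus Cdk19 KO was 1.46 for Anxa10, 1.41 for Akap12, 1.00 for Cdh6, 0.71 for Gimd1 and 0.52 for Palld. This difference chose the genes and was not tested, and both sides share the RasG12V libraries.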

How the results depend on the processing

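The fall of Akap12 and Cdh6 and the rise of Palld with Ras kept their direction and passed the threshold under all 22 alternatives, and none of the 5 genes passed for the mean of both knockouts under any. With both replicates 3 left out, RasG12V against untransformed passed the threshold for Anxa10, at -1.37, and Gimd1, at -0.23, and called 5799 genes in place of 3340, against 1574 with only the groups compared in the fit. Leaving out each library in turn gave -1.22 to -0.34 for Anxa10 in that comparison, with the strongest value without untransformed replicate 3, and limma-voom gave -0.06 (adjusted p = 0.966). The mean of both knockouts against RasG12V called 2 genes, but 0 with upper quartile scaling or with only the groups compared in the fit, 1 with the 1 CPM filter, limma-voom or the replicate block, 14 with no filter, 18 with DESeq2, 116 without both replicates 3, and 0 to 5 with each library left out. Cdk8 KO against Cdk19 KO called 15 genes, but 108 with no filter, 115 with DESeq2, 496 with only the groups compared, 771 without both replicates 3, and 0 to 133 with each library left out. Against RasG12V, Cdk8 KO called 0 genes and Cdk19 KO 2, but 16 and 84 with no filter, 30 and 66 with DESeq2, and 231 and 291 without both replicates 3. Whether replicate numbers pair the samples was not settled. Correlations of deviations ran from -0.17 to 0.28 over 18 pairs, 8 over 0.1, and 6 of 12 libraries correlated best with their own number. With the replicate block RasG12V against untransformed called 3685 genes and Cdk8 KO against Cdk19 KO 17. The cause of these shifts was not tested. Depth limits Cdh5 and Cdh10, which had few reads, and 2 libraries that stand apart limit Anxa10 and Akap12.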
